A study of Mus musculus with 12 samples.

Results

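The transcription factors described here are 10 genes that hold lymphocytes out of the cell cycle or are close relatives of genes that do: the forkhead genes Foxo1, Foxo3, Foxo4 and Foxp1, and the Krüppel-like factors Klf2, Klf3, Klf4, Klf6, Klf10 and Klf13. They were taken by name, and each matched 1 row among 29486 genes. All 10 passed a filter on low values that kept 15507 genes. Polyadenylated RNA of primary splenic B cells from C57BL/6Babr mice was sequenced as 12 libraries, 4 per condition, and all cells had been activated in culture with lipopolysaccharide (LPS, 10 µg/ml), a bacterial ligand that drives B cells into division. The LPS cells had 48 h of LPS. The LE cells had 48 h of LPS and then 4 h of etoposide (20 µM), a topoisomerase II poison that leaves double-strand breaks. The LEKU cells had 47 h of LPS, 1 h of KU55933 (10 µM), an inhibitor of the DNA damage kinase ATM, and then 4 h of etoposide (20 µM). The comparisons ask what etoposide did to these transcripts and which of its effects differed when ATM was inhibited. The labels give neither the age of the mice nor whether a library pooled several, they do not say whether LPS cells stayed in culture for the further 4 h, and no cells had KU55933 without etoposide.

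FOXO proteins are activators of genes for cell cycle arrest, homing and survival, and AKT, the kinase downstream of PI3K, expels them from the nucleus when a lymphocyte is stimulated. Foxo1 is the main FOXO gene of B cells, where it serves homing and survival, and Foxp1 is a forkhead repressor needed for B cell development and mature B cell maintenance. The KLF proteins bind GC-rich and CACCC-type sites through zinc fingers, and Klf2 is known as the quiescence factor of resting lymphocytes.

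Fitted read counts per library summed to between 20739978 and 23935658 in LPS, 22523516 and 30575195 in LE, and 20400994 and 25052093 in LEKU. The deposited columns of a condition turned out to be 1 fitted mean per gene multiplied by 1 factor per library: the log2 ratio of any pair of columns of a condition was the same for every gene to within 1.4e-14. The values therefore carry no replicate error. No SD, interval or test could be made from them, and whether a difference exceeds the spread between replicates cannot be said here. Levels below are the deposited values divided by a median-of-ratios factor per library, which leaves 1 level per gene and condition, from 4 libraries each. Differences are on the log2(level + 1) scale, and a gene is called higher or lower when it is past 1.5-fold, a limit of size and not of significance. In bulk RNA, fewer cells of a type and less RNA per cell cannot be told apart. The Illumina indexes also differed between the conditions, so index and condition cannot be told apart.

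The cells carried the transcripts of B cells, with all 6 B cell markers kept, among them Cd79a, Cd79b, Ms4a1, Pax5 and Cd22. Their summed level was 133634 in LPS, 73156 in LE and 82567 in LEKU. Of the 6, 5 were lower in LE than in LPS, led by Cd22 (24112 and 4277) and by Pax5, the factor that keeps B cell identity (5544 and 1122). In this comparison, 16.2% of all kept genes were lower and 21.9% higher. The T cell markers Cd3e, Cd3d, Cd3g, Cd4 and Cd8a stayed at or below a level of 3.6, and only Lat of the 6 was kept (summed level 22.4, 60.7 and 37.4 in LPS, LE and LEKU). The 6 macrophage markers summed to 418, 468 and 431, with 3 of them higher in LE than in LPS (Cd14 at 5.18 and 24.2, Cd68 at 105 and 211, Csf1r at 4.18 and 10.3) and Itgam lower (220.4 and 129). Cd14 and Csf1r were under 10 in LPS and passed the filter on low values only through the etoposide conditions. The 4 neutrophil markers summed to 2.17, 15.0 and 4.41, of which Mpo was 1.26, 13.9 and 3.35, S100a8, S100a9 and Ly6g being under 0.5 throughout. The sums of the rest were 0.795, 0.981 and 1.42 for the 2 NK cell markers in the table and 218, 186 and 116 for the 6 red cell markers. What these shifts contribute to the values of the FOX and KLF genes was not tested.

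The promoters of the 3 genes on which the description turns most, Klf2, Foxo3 and Klf4, are shown first, because GC boxes and CACCC boxes are the sites that KLF and SP proteins read. The sequences are RefSeq's on GRCm38.p6, each 5′ to 3′ on the gene's own strand. Each is the part of the 250 bases before the RefSeq start that also lies before the GENCODE start of the gene. Capitals mark GC boxes (GGGCGG or its reverse complement CCGCCC). The Klf2 stretch is chr8:72318812-72319032 on the plus strand, the Foxo3 stretch is chr10:42276756-42276945 on the minus strand, and the Klf4 stretch is chr4:55532476-55532725 on the minus strand.
Klf2: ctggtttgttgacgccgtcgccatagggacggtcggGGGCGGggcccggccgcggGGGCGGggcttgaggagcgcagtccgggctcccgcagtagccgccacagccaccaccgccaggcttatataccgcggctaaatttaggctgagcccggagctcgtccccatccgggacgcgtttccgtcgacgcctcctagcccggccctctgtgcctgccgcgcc
Foxo3: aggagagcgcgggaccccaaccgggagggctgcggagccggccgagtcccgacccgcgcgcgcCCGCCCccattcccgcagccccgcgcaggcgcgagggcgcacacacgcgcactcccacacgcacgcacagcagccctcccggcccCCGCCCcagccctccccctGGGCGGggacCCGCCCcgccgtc
Klf4: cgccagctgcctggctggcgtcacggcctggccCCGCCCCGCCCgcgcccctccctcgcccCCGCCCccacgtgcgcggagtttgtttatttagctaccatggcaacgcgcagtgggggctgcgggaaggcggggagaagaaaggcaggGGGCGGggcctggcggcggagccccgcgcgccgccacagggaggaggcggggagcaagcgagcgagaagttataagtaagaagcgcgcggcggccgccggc

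The printed Klf2 stretch held 2 GC boxes, and those of Foxo3 and Klf4 held 4 each. Promoters of 8 of the 10 genes were matched (Foxo4 and Klf10 were not), with 10 windows in all, since Foxp1 has 3 starts. In the full 250 bases before the start, 9 of the 10 windows held a GC box, against 32.7% of 32851 promoters and 55.3% of the 12904 promoters of kept genes. The CACCC box (CACCC or GGGTG, which may share a base with a GC box) was found in 5 of the 10 windows, against 52.0% of all promoters and 57.1% of those of kept genes. The Klf2 window held 1, in the bases past the GENCODE start that are not printed. The forkhead core GTAAACA, searched on both strands, was in none of the 10 windows and in 2.19% of the promoters of kept genes. The share of G and C was 71.2% for Klf2, 76.4% for Foxo3 and 74.0% for Klf4 against a median of 59.2% for kept genes, and over the 10 windows it ran from 45.2% in 1 of Foxp1 to 78.4% in Klf3, with Foxo1 at 56.0%. A match of letters describes the sequence and does not show a bound site.

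After etoposide, 4 of the 10 genes were lower than in LPS (Klf2, Foxp1, Klf13 and Foxo1), 3 were higher (Klf4, Foxo3 and Klf10), and Foxo4, Klf3 and Klf6 stayed within 1.5-fold. Over all kept genes, 16.2% were lower and 21.9% were higher in this comparison, so the 4 of 10 and the 3 of 10 stand beside those shares. The median difference was -0.56 for the 10 genes and -0.015 for all kept genes. Read with the columns as deposited, 7.35% of kept genes were lower and 33.2% higher, with column totals 11.9% and 25.2%, and with quantile normalization 21.2% and 16.9%. The columns as deposited moved the median of all genes by 0.33 on the log2 scale, and column totals moved it by 0.13. No difference of the 10 genes changed sign under any scaling.

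**Figure D1:**
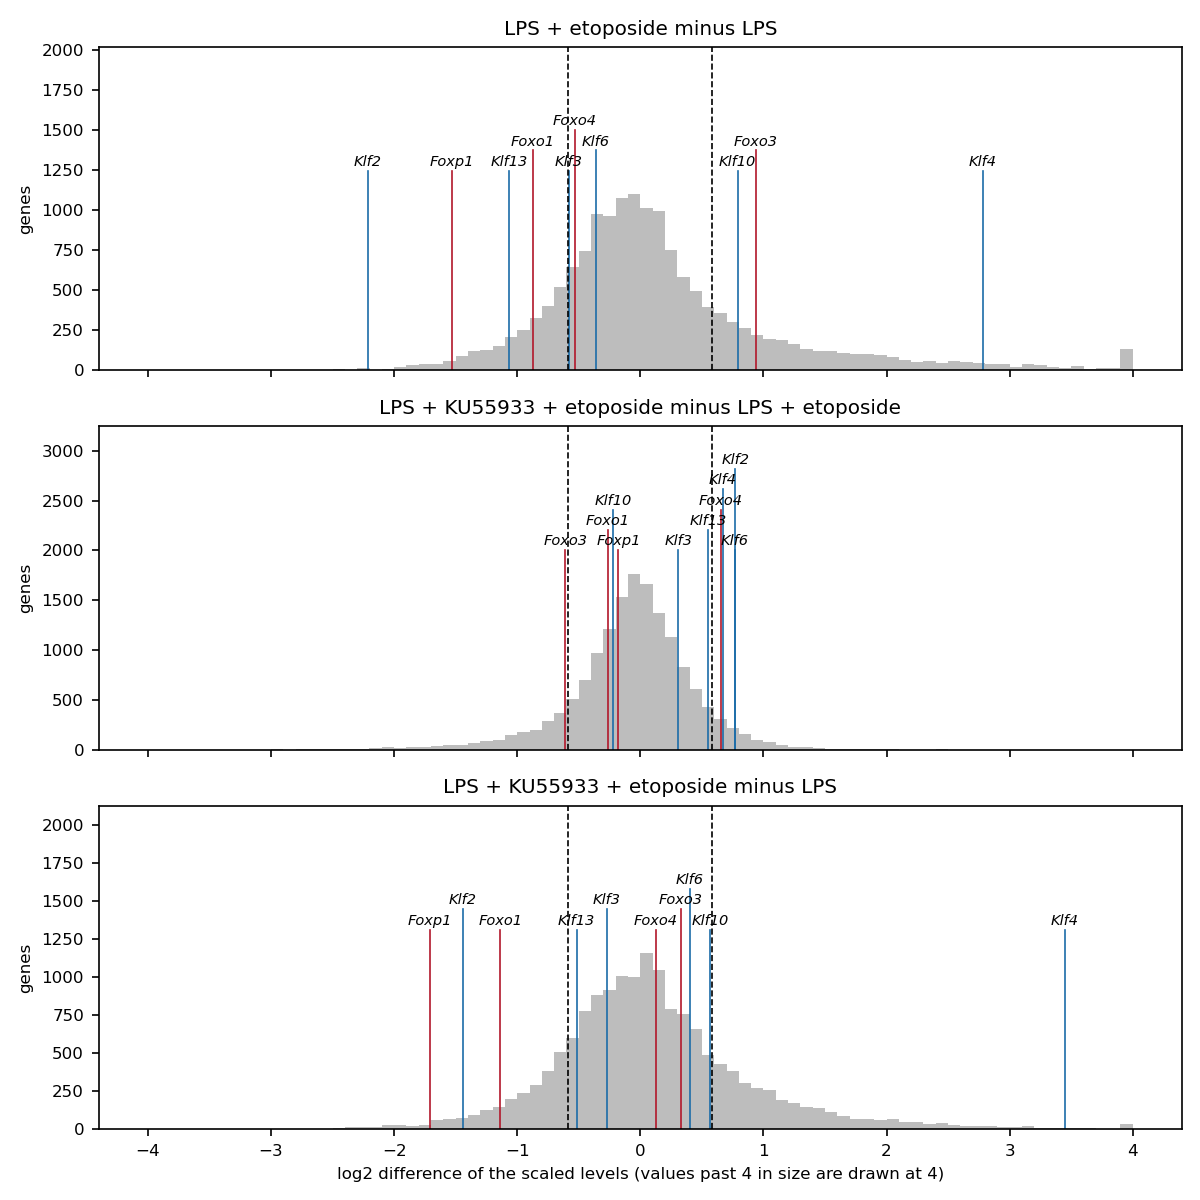
Distribution of log2 differences over the 15507 kept genes (grey bars, number of genes on the vertical axis) in the 3 comparisons, with the 4 forkhead genes (red lines) and 6 KLF genes (blue lines) marked and the 1.5-fold limit dashed. In the top panel Klf2 sits at -2.21 and Klf4 at 2.78, at opposite ends of the distribution, and in the middle panel the 10 genes lie between -0.61 and 0.77.

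Foxo1 (ENSMUSG00000044167, chromosome 3, 52268336 to 52353221 on the plus strand of GRCm38) had deposited values of 2644, 2933, 3051 and 2750 in the LPS libraries, 1714, 1921, 2327 and 1862 in the LE libraries, and 1334, 1505, 1612 and 1638 in the LEKU libraries. LPS was the highest and LEKU the lowest. As for every gene, libraries of a condition differ only by their factor. The scaled level was 3235 in LPS, 1764 in LE and 1471 in LEKU. Foxo1 was 1.83-fold lower in LE than in LPS and 2.20-fold lower in LEKU than in LPS. With the columns as deposited, its difference between LE and LPS was -0.54, inside the limit. The LEKU level differed from the LE level by -0.26 and lay farther from that of LPS, under each scaling tried.

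Foxo3 (ENSMUSG00000048756, chromosome 10, 42181841 to 42276755, minus strand), the FOXO gene tied to stress resistance and cell death, went the opposite way. Its deposited values were 1544, 1713, 1781 and 1605 in LPS, 3522, 3947, 4781 and 3826 in LE, and 2156, 2431, 2604 and 2647 in LEKU. LE was the highest of the 3 conditions. Foxo3 was 1.92-fold higher in LE than in LPS (scaled levels 3624 and 1888), and 84.9% of kept genes had a smaller difference. In LEKU it stood at 2376, 1.53-fold lower than in LE, a call that lies close to the limit and is lost with column totals, with quantile normalization and with no filter on low values.

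Foxo4 (ENSMUSG00000042903, chromosome X, 101254528 to 101260873, plus strand) is the smallest in exon length of the 3 FOXO genes. Its deposited values ran from 530 to 612 in LPS, 436 to 592 in LE and 642 to 789 in LEKU. The scaled level was 649 in LPS and 449 in LE, a difference of -0.53 that stayed within the limit. At 708 in LEKU it was 1.58-fold higher than in LE and 0.13 above LPS on the log2 scale. With the columns as deposited the LEKU against LE difference was 0.56, inside the limit.

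Foxp1 (ENSMUSG00000030067, chromosome 6, 98925338 to 99522721, minus strand) had the highest level per kb of exon of the 10 genes in LPS. The deposited values were 7333, 8136, 8463 and 7626 in LPS, 3020, 3385, 4099.7 and 3282 in LE, and 2491, 2809, 3009 and 3059 in LEKU. LPS had the highest values. Foxp1 was 2.89-fold lower in LE than in LPS, and 1.38% of kept genes had a lower difference. In LEKU it was 3.27-fold lower than in LPS, and the LEKU level was 0.18 below that of LE on the log2 scale. Foxo1 and Foxp1 were thus lower than in LPS in both etoposide conditions, and their LE and LEKU levels were within 1.5-fold of each other.

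**Figure D2:**
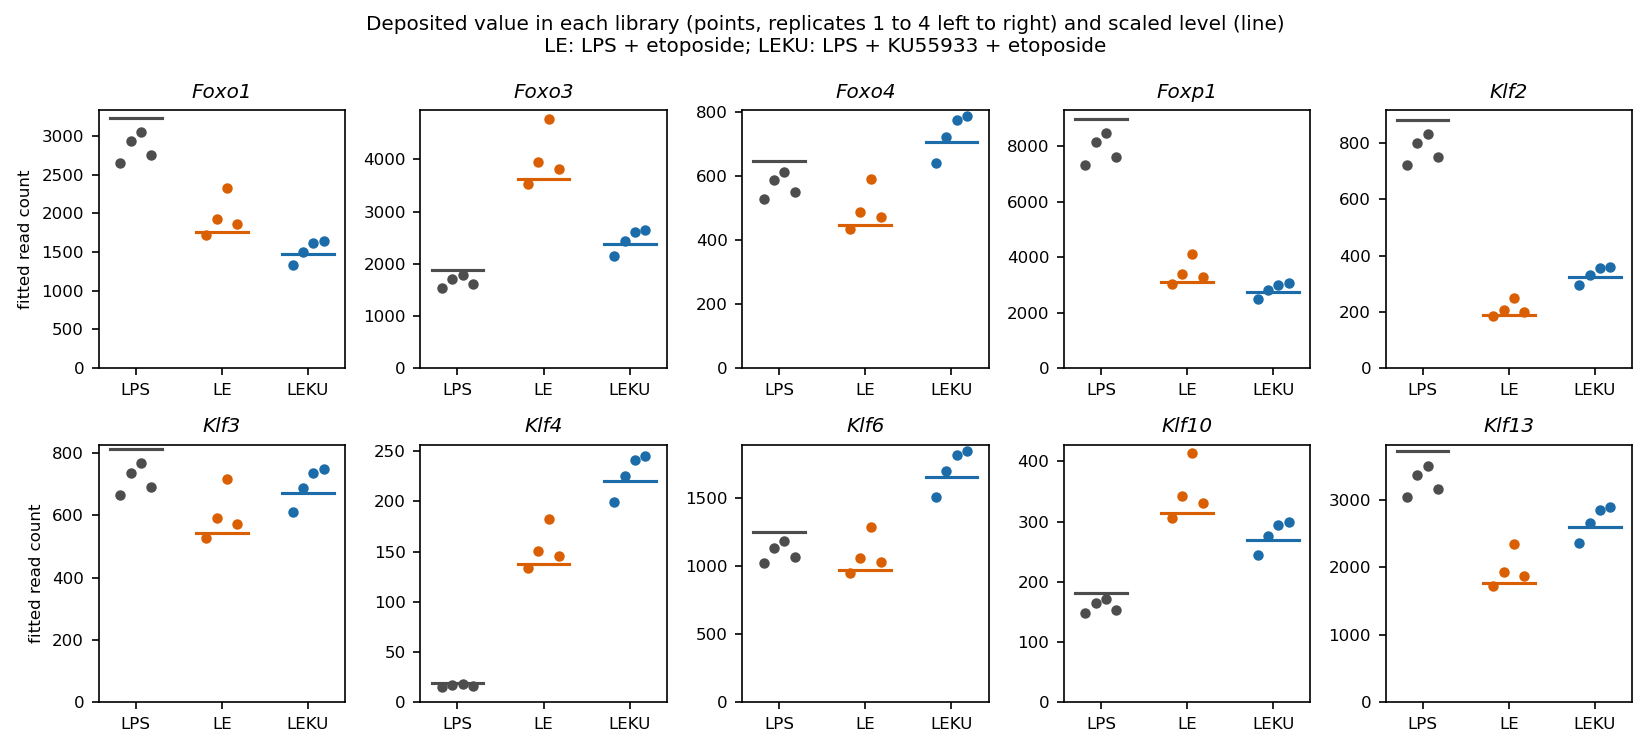
Deposited fitted read count of each gene in each of the 12 libraries (points, 4 per condition, vertical axes from 0) and the scaled level of the condition (line). Points of a condition differ by the library factor alone and show no biological spread, and the 4 Klf4 points in LPS lie between 15.7 and 18.1 while those in LEKU lie between 199 and 245.

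Klf2 (ENSMUSG00000055148, chromosome 8, 72319033 to 72321656, plus strand) was lower by the most of the 10 genes after etoposide. Its deposited values were 721, 799.5, 832 and 749 in LPS, 184, 206, 249.9 and 200.001 in LE, and 294, 331, 355 and 361 in LEKU. LEKU lay between LPS and LE. From a scaled level of 882 in LPS it was 4.64-fold lower in LE, at 189, and 0.213% of kept genes had a lower difference. In LEKU, at 324, Klf2 was 1.71-fold higher than in LE and still 2.72-fold lower than in LPS.

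Klf4 (ENSMUSG00000003032, chromosome 4, 55527143 to 55532466, minus strand), a relative of Klf2 with a similar arrest function in B cells, was higher instead. Deposited values were 15.7, 17.4, 18.1 and 16.3 in LPS, 134, 150.2, 182 and 146 in LE, and 199, 225, 241 and 245 in LEKU. LEKU was the highest. On the log2(level + 1) scale Klf4 was 6.88-fold higher in LE than in LPS (138 and 19.2), and 97.3% of kept genes had a smaller difference. In LEKU, at a level of 220, it was a further 1.59-fold higher than in LE, and 10.9-fold higher than in LPS. The step from LE to LEKU measured 0.57 with the columns as deposited, inside the limit.

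Klf13 (ENSMUSG00000052040, chromosome 7, 63886351 to 63938915, minus strand), known as an activator of the chemokine gene Ccl5 in T cells, had deposited values from 3038 to 3506 in LPS, 1723 to 2339 in LE and 2354 to 2891 in LEKU. The scaled levels were 3716, 1773 and 2595. It was 2.10-fold lower in LE than in LPS, with 5.02% of kept genes lower still. The LEKU level was 1.46-fold above that of LE, within the limit, although the difference of 0.55 passed it with column totals and with quantile normalization.

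Klf6 (ENSMUSG00000000078, chromosome 13, 5861482 to 5870394, plus strand), an early response gene of many cell types, stayed within the limit after etoposide alone, at 1254 in LPS and 976 in LE. It was 1.70-fold higher in LEKU, at 1659, than in LE. Klf10 (ENSMUSG00000037465, chromosome 15, 38291463 to 38300706, minus strand), known as a TGF-beta inducible gene, was 1.73-fold higher in LE (314) than in LPS (181), and was at 269 in LEKU. Klf3 (ENSMUSG00000029178, chromosome 5, 64803388 to 64832901, plus strand), a repressor whose loss alters B cell subsets, had levels of 813, 543 and 672 in LPS, LE and LEKU. Its difference of -0.58 between LE and LPS lay just inside the limit of 0.585, and Foxo4 was the next one inside. In GENCODE annotation, exons of Foxo1 share 7.78% of their bases and those of Klf3 3.59% with a gene on the opposite strand (Gm20402 and Gm20033), and Foxp1 shares 2.18% with Gm20696 on its own strand. The sources do not say whether counting used the strand, so a small part of these reads may belong to the neighbours.

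With the ATM inhibitor present, 4 of the 10 genes were higher than after etoposide alone (Klf2, Klf6, Klf4 and Foxo4), 1 was lower (Foxo3) and 5 were within the limit. The background was 7.16% of kept genes higher and 11.6% lower. The median difference of the 10 genes was 0.43 against -0.038 for all kept genes. With the columns as deposited, where 5.16% of kept genes were higher and 15.0% lower, the 5 genes past the limit became 3 (Klf2, Klf6 and Foxo3). With quantile normalization the shares of all genes were 9.67% and 9.92%. The 5 genes past the limit were all under 2-fold, the largest difference being 0.77 for Klf2 and Klf6 alike. Of the 4 higher genes, Klf2 was nearer to its LPS level in LEKU than in LE and Klf4 was farther from it, whereas Foxo4 and Klf6 were below their LPS level in LE and above it in LEKU. These directions held under each scaling tried.

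Compared with LPS cells, LEKU cells had 1 of the 10 genes higher (Klf4) and 3 lower (Foxp1, Klf2 and Foxo1), beside a background of 20.5% and 15.5%. The median difference was -0.074 for the 10 genes and 0.023 for all kept genes. The split over all kept genes was 29.6% higher and 8.96% lower with the columns as deposited, and 26.7% and 10.3% with column totals. The columns as deposited and column totals moved the median of all genes in this comparison by 0.23 and 0.17. Klf10, at 0.57, lay just inside the limit and passed it under both of these scalings, and Klf6, at 0.40, passed it with the columns as deposited, at 0.64, which made 3 genes higher and 3 lower. The 3 comparisons share their libraries, so their differences for a gene are not independent of each other.

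Divided by exon length (the union of GENCODE exons, which need not be the transcript a B cell makes), levels can be ordered between genes. In LPS the order was Foxp1 at 652 per kb, Klf13 at 493, Klf2 at 477, Foxo1 at 373, Klf6 at 286, Foxo3 at 249, Foxo4 at 186, Klf3 at 72.3, Klf10 at 43.4 and Klf4 at 6.30. In LE, Foxo3 led at 479 per kb, followed by Klf13 at 235, Foxp1 at 226, Klf6 at 222 and Foxo1 at 204, and Klf4 was still the lowest at 45.2. In LEKU the leading genes were Klf6 at 378 per kb, Klf13 at 345 and Foxo3 at 314, and Klf3 was the lowest at 59.8. Klf2 went from the third place in LPS to the seventh in LE, at 103 per kb, and to the sixth in LEKU, at 175. With no replicate error, neighbours such as Klf13 and Klf2 in LPS, or Klf13, Foxp1 and Klf6 in LE, cannot be shown to differ.

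**Figure D3:**
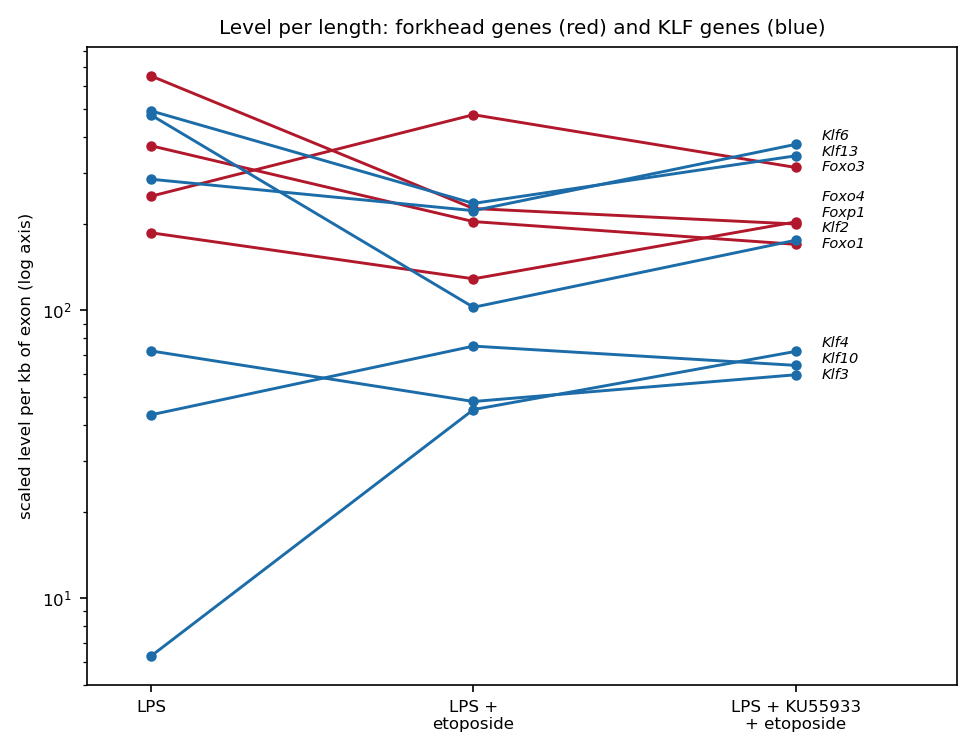
Scaled level per kb of exon (log axis) of the 10 genes in LPS, LPS + etoposide, and LPS + KU55933 + etoposide, with forkhead genes in red and KLF genes in blue. Foxo3 is the one forkhead line that goes up from LPS to LPS + etoposide, from 249 to 479, and Klf4 is the lowest line in LPS (6.30) and LPS + etoposide (45.2) but not with KU55933 (72.1), where Klf3 is lowest (59.8).

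The makeup of each family can be read without regard to scaling by a factor per library, since such a factor cancels within it. Foxo1 made up 46.2% of the summed FOXO level per kb in LPS, 25.1% in LE and 24.7% in LEKU. Foxo3 made up 30.8%, 59.0% and 45.7%, and Foxo4 23.0%, 15.9% and 29.6%. The ratio of Foxo1 to Foxo3 per kb was 1.5 in LPS, 0.425 in LE and 0.541 in LEKU. The leading FOXO transcript was thus Foxo1 in LPS and Foxo3 in both etoposide conditions, while the sum of the 3 was 809, 811 and 687 per kb. The LE to LPS ratio of that sum was 1.00, and other scalings put it between 1.01 and 1.26.

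Among the 6 KLF genes, Klf2 made up 34.6% of the summed level per kb in LPS, 14.1% in LE and 16.0% in LEKU. Klf6 took 20.7%, 30.5% and 34.5%, Klf13 35.8%, 32.3% and 31.5%, and Klf4 0.457%, 6.21% and 6.59%. The sum was 1378 per kb in LPS, 729 in LE and 1094 in LEKU, and its LE to LPS ratio of 0.529 ran from 0.529 to 0.667 over the scalings. The ratio of Klf2 to Klf6 per kb was 1.67 in LPS, 0.462 in LE and 0.464 in LEKU. Both genes had larger levels in LEKU than in LE, and their ratio to each other was nearly the same. The ratio of Klf2 to Klf4 per kb was 75.8 in LPS, 2.27 in LE and 2.43 in LEKU.

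**Figure D4:**
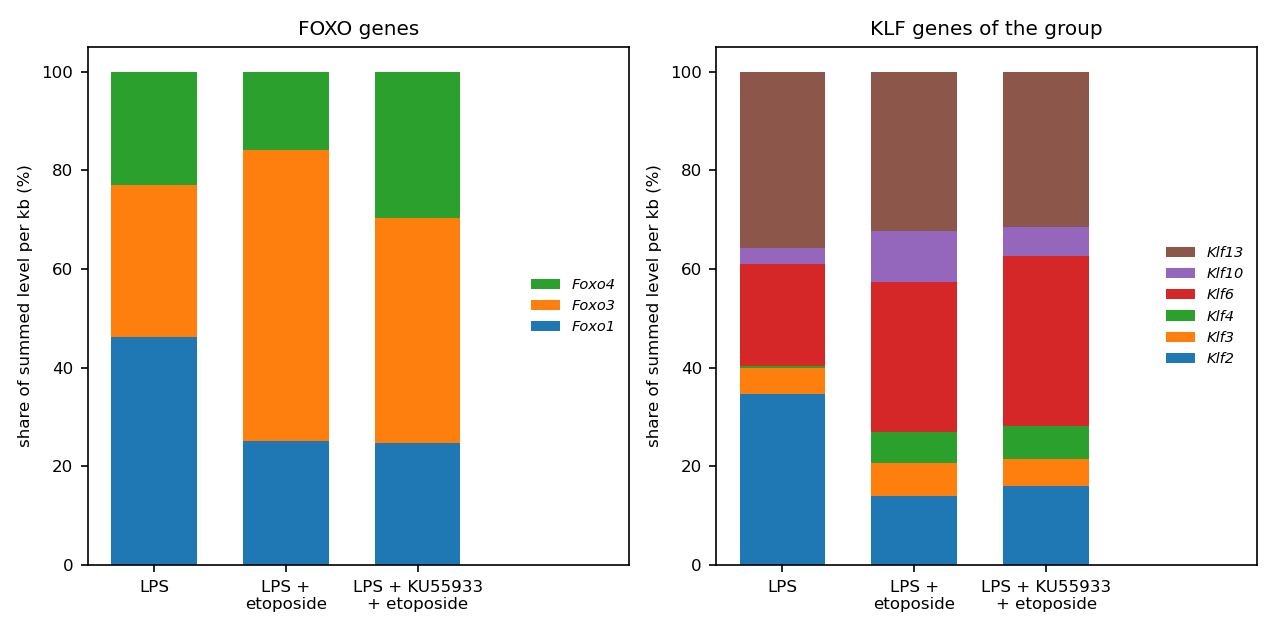
Share of each gene in the summed level per kb of the 3 FOXO genes (left) and of the 6 KLF genes (right), in percent, for LPS, LPS + etoposide, and LPS + KU55933 + etoposide. The Foxo3 block grows from 30.8% to 59.0% and is 45.7% with KU55933, and the Klf2 block shrinks from 34.6% to 14.1% and is 16.0% with KU55933.

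Genes known as FOXO targets went in both directions after etoposide. Of 23, 21 were kept, and 6 were higher, 5 lower and 10 within the limit in LE against LPS (median -0.26), where 21.9% of kept genes were higher and 16.2% lower. The highest were Gadd45a (129 in LPS and 292 in LE), which p53 also induces, and Rbl2, a pocket protein of arrested cells (1896 and 4099.6). In LEKU against LE, 8 of the 21 were higher, 1 lower and 12 within the limit (median 0.25), beside 7.16% and 11.6% of kept genes. Among the higher ones, Ccr7, a chemokine receptor of lymphocyte homing, was 2.58-fold higher at 10700.2 against 4151 in LE. Txnip, a regulator of glucose uptake and redox state, was the lower one, at 3836 against 7104. Compared with LPS, LEKU had 6 of the 21 higher and 3 lower, with Irs2, an insulin receptor substrate, at 1183 against 430 and Fbxo32, a ubiquitin ligase subunit, at 456 against 190.0 (median 0.0017). The shares of kept genes there were 20.5% higher and 15.5% lower.

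Of 10 KLF targets, 9 were kept, and 4 were higher and 3 lower in LE against LPS (median -0.55), beside 21.9% and 16.2% of kept genes. Among the higher ones, Pdgfa (7.83 in LPS and 140 in LE), Cdkn1c (3.82 and 11.5) and Thbd (9.46 and 18.2) were under 10 in LPS. They passed the filter on low values only through the etoposide conditions, and the lower gene Cxcr3 (14.9 and 8.35) through LPS. Their calls therefore depend on the filter, also in LEKU against LPS. The list shares 2 genes with the FOXO targets. Of these, S1pr1, the receptor by which lymphocytes leave tissue, was at 685 in LPS, 340 in LE and 610 in LEKU. Cdkn1a was at 412, 13448 and 10787, and as the cell cycle inhibitor p21 it is best known as a p53 target. In LEKU against LE, 3 of the 9 were higher and 1 lower (median -0.30), beside 7.16% and 11.6% of kept genes. The cytokine Il6, at 496 against 207, was among the higher ones. The lower one was Cxcr3 (5.13 in LEKU and 8.35 in LE), under 10 in both and kept through LPS, so that call also depends on the filter. In LEKU against LPS, 5 were higher and 3 lower (median 0.71), beside 20.5% and 15.5% of kept genes, with Itgb7, an integrin of gut homing, at 138 against 304.

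All 23 genes of the PI3K and AKT route to FOXO were kept, and 10 were lower and 1 higher in LE against LPS (median -0.50), beside 16.2% and 21.9% of kept genes. Among the lower ones, Inpp4b, a lipid phosphatase that opposes PI3K, was at 465 in LPS and 190.3 in LE. Sgk1, a kinase that also phosphorylates FOXO proteins, was the higher one (71.1 and 216). In LEKU against LE, 22 of the 23 stayed within the limit (median -0.054) and 1 was higher, beside 7.16% of kept genes higher and 11.6% lower. Against LPS, LEKU had 11 lower and 1 higher (median -0.56), beside 15.5% and 20.5% of kept genes, including Inpp5d, the phosphatase SHIP1, at 2511 against 5688. The list shares 1 gene with the B cell markers, whose summed level moved in the same comparisons as given above.

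**Figure D5:**
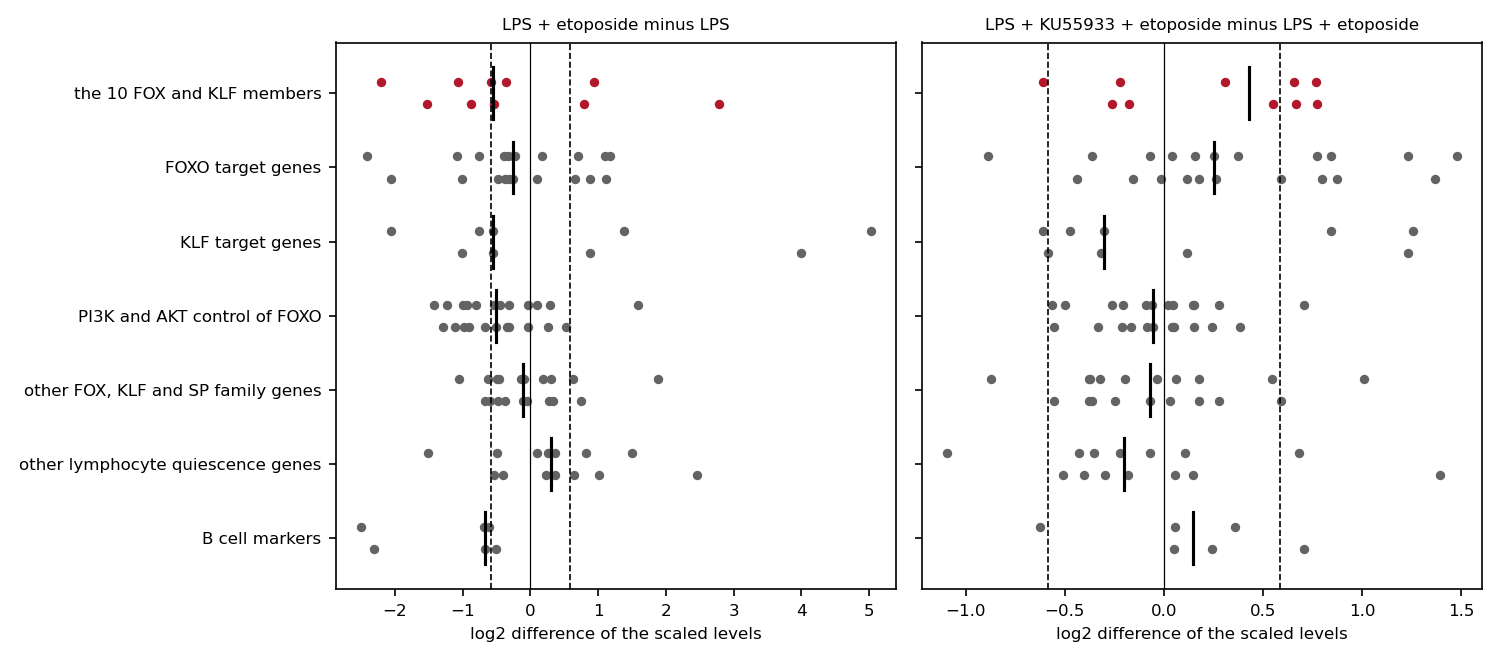
Log2 difference of each kept gene (points) and the median (black bar) for the 10 FOX and KLF genes in red and for the gene lists in grey, in LE against LPS (left) and LEKU against LE (right), with the 1.5-fold limit dashed. The PI3K and AKT genes have a median of -0.50 on the left and -0.054 on the right, and the 10 FOX and KLF genes -0.56 and 0.43.

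The genes whose levels followed Klf2 and Klf4 most closely were sought among 10871 genes with a mean level of at least 100, by the distance between their log2 differences from LPS in LE and LEKU. Over only 3 conditions, such likeness is easily met. Nearest to Klf2 was Ltb (lymphotoxin beta) at a distance of 0.081, with levels of 1579, 360 and 578 in LPS, LE and LEKU, followed by Mob3b at 0.17 and Pirb at 0.29. Nearest to Klf4 was Hspa1b, an inducible heat shock protein, at 0.15 (28.1, 197 and 285), followed by Nr4a3, an early response nuclear receptor, at 0.21 and Tsc22d1 at 0.37.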

How the data were processed

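Polyadenylated RNA of 12 libraries was sequenced by the study. Per the labels, 4 replicates were made per condition, and groups were taken from the sample titles. The submitters' processing notes name Trim Galore, cutadapt 1.2.1, TopHat2 2.0.12, HTSeq and DESeq2 1.6.3, and the GRCm38 build. The deposited values used here, a signal per gene and library, are the authors' normalized counts, and were found to be fitted means of a condition multiplied by a factor per library. The authors' comparison tables, which hold mean levels, fold changes, standard errors, test statistics and p-values, were not used. A limma test had been planned for replicate values and was not possible.

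The filter on low values kept genes that reached 10 in no fewer than 4 libraries. Columns were divided by median-of-ratios factors computed from the table (0.817 to 1.32), averaged per condition and compared as log2(value + 1) with a limit of 1.5-fold. Shares of all 15507 kept genes past the limit gave the background. Depth limits the precision of low genes such as Klf4 in LPS, but no counting interval can be made from fitted means. All 10 genes are named. From each gene list, up to 2 genes per direction with the largest difference and a mean level of at least 100 were named, and other genes named from the lists were chosen after their values were seen. Some genes that this rule picks are not reported here. The members and lists were chosen with earlier results of these data known. Exon lengths and positions came from GENCODE M21 (GRCm38), with lengths for 99.5% of kept genes, and promoters from RefSeq. The scripts ran in Python 3.11.15 with numpy 2.4.6, pandas 2.3.3 and matplotlib 3.10.9, and were tested on simulated data. The alternatives were 4 other scalings, 2 pseudocounts, 2 filters, a limit of 2-fold and leaving out each replicate number.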

Additional observations from a re-analysis of the deposited data

How the results depend on the processing

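The 30 differences of the 10 genes were recomputed under 13 alternatives, and none changed sign. Of the 30, 16 were past 1.5-fold, and 9 lay on another side of the 1.5-fold limit in at least 1 of the alternatives that kept that limit. With a limit of 2-fold, 4 genes were past it in LE against LPS (7 at 1.5-fold) and 0 in LEKU against LE (5 at 1.5-fold). With the columns as deposited, 3 genes were past the limit in LEKU against LE. Other alternatives gave 6 to 9 genes in LE against LPS, 4 to 5 in LEKU against LE and 4 to 6 in LEKU against LPS. The share of all kept genes was not computed for the limit of 2-fold, the filters or the pseudocounts. Whether the counts under those settings differ from the background therefore cannot be said. With no filter, Foxo4 and Klf3 also passed the limit in LE against LPS, and with a minimum of 50, Klf10 passed it in LEKU against LPS. Leaving out any replicate number gave 7, 5 and 4 genes in the 3 comparisons, which follows from the fitted means and says nothing about replicate spread. No paired analysis was possible because the columns hold fitted means per condition with no replicate values.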

Other observations

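Of 25 other genes of the FOX, KLF and SP families, 19 were kept, and in LE against LPS 3 were higher, 4 lower and 12 within the limit (median -0.11), beside 21.9% of all kept genes higher and 16.2% lower. Sp1 and Sp4, zinc finger factors that bind GC boxes, were higher, at 10164 against 6605 and 1636 against 973. The other higher gene, Klf1, was at 8.38 in LPS, 33.6 in LE and 17.9 in LEKU. Klf1 passed the filter on low values only through the etoposide conditions, and was also counted as lower in LEKU against LE and higher in LEKU against LPS. Foxm1, a forkhead activator of mitotic genes, was at 2386 in LPS, 1153 in LE and 896 in LEKU, and Foxp4 was at 1785 in LPS and 1120 in LE. In LEKU against LE, 2 of the 19 were higher, 1 lower and 16 within the limit (median -0.071), beside 7.16% and 11.6% of kept genes, with Klf9, a close relative of Klf13, at 199 against 98.4 and Klf8 at 208 against 137. Foxn3 was 1.96-fold lower in LEKU than in LPS, where 2 of the 19 were higher and 3 lower (median -0.13), beside 20.5% and 15.5% of kept genes.

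Of 16 listed symbols of quiescence genes outside these families, 14 were matched and kept. In LE against LPS, 5 were higher, 1 lower and 8 within the limit (median 0.31). Such counts are read against the same shares of kept genes in each comparison. The antiproliferative genes Tob1 and Btg2 were at 391 and 4315 in LPS and at 2146 and 12206 in LE, and Btg2 is a known p53 target. Fam65b was the lower one, at 4053 in LPS, 1415 in LE and 1350 in LEKU. In LEKU against LE, 2 were higher and 1 lower (median -0.20). Tsc22d3, the glucocorticoid-induced leucine zipper gene, was at 2439 against 929, Tob2 at 6478 against 4035, and Cdkn2c, the cell cycle inhibitor p18, at 504 against 1078. In LEKU against LPS, 5 were higher and 3 lower (median 0.34), with Runx1 at 620 against 1144.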
